A study of Mus musculus with 8 samples.

Results

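The Id family consists of *Id1*, *Id2*, *Id3* and *Id4*, 4 of the 54307 gene identifiers in the deposited table, and all 4 passed the filter on low counts that left 17669 genes to test. The genes were chosen by family name, and on the basis of their lower counts in *Lrig1* KO than in WT mice, which were known for *Id1*, *Id2* and *Id3*, so their difference between genotypes is given below as values without a test. The tissue was the dissected periventricular area with the ventricular-subventricular zone (V-SVZ), from 1 hemisphere of each of 8 mice at 8 weeks of age. The KO group held 4 mice, 2 female and 2 male, homozygous for an *Lrig1* allele with CreERT2 knocked in, which acts as a constitutive knockout in all cells. The WT group held 4 mice, 3 female and 1 male, and both groups were on the 129-Elite background. No mouse of these groups is described as treated. The libraries held between 47887437 and 74482334 estimated counts. Levels of a gene in each mouse are given as CPM (counts relative to the total of the library) after TMM scaling of the libraries. *Lrig1* had 33.7 ± 14.2 CPM in WT and 2.42 ± 1.40 in KO (SD, n = 4 each), without overlap of the groups. Each defining marker of the neuroblasts (6 of 6), the ependymal cells (6 of 6) and the astrocytes and neural stem cells (8 of 8) of this tissue was detected. Markers of striatal (10 of 10) and of cortical neurons (9 of 9) were detected too.

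Id proteins are small helix-loop-helix (HLH) proteins without the basic region that touches DNA. They pair with E proteins, the common partners of tissue-restricted basic HLH (bHLH) activators such as the NEUROD factors, and the pairs cannot bind E-box DNA. BMP ligands raise *Id* transcription through their receptors and SMAD1/5 with SMAD4, and in the adult V-SVZ Id proteins are known for keeping neural stem cells from differentiating. *Id1* and *Id3* are also known from vessel cells, and *Id2* and *Id4* from neurons and astrocytes.

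The 4 coding sequences show how far reads of one family member could be taken for another. Their most alike ungapped stretch of 120 bases is printed because it falls in the part that encodes the HLH domain, with the 70 bases (58.3%) that are the same in all 4 genes in capitals. It comes from transcripts of Gencode M21 (GRCm38), lies in each case in coding exon 1, and is written 5′ to 3′ on the coding strand.
*Id1*: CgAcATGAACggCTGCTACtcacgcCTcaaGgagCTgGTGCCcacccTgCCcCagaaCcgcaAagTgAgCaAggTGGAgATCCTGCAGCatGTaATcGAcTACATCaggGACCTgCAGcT
*Id2*: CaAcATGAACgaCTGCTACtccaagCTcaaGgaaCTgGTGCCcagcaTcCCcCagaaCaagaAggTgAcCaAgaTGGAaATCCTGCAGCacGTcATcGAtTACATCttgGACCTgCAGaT
*Id3*: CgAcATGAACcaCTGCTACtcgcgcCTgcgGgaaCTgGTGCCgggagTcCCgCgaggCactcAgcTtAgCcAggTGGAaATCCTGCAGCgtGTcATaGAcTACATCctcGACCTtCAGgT
*Id4*: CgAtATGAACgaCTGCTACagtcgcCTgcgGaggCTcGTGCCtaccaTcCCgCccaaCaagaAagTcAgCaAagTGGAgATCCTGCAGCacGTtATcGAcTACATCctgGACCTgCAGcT
The stretch lies at chr2:152736520-152736639 on the plus strand for *Id1*, at chr12:25095781-25095900 on the minus strand for *Id2*, at chr4:136144004-136144123 on the plus strand for *Id3* and at chr13:48261695-48261814 on the plus strand for *Id4*. Within it any pair of genes shared between 70.8% and 80.8% of the bases, and over the whole coding sequences between 58.5% and 62.9%. *Id1* and *Id2* were the most alike pair by both measures. Between the main transcripts of any pair the longest run of identical bases was 11 to 19 bases, and 0 words of 31 bases were shared, so a longer exact match names 1 member only. No other annotated gene overlaps *Id1*, *Id2* or *Id3* in that annotation. *Id4* is overlapped on the opposite strand by *A330033J07Rik* and *Gm49291*, and since use of the strand in counting is not given in the sources used here, reads of *Id4* and of these genes may not be told apart.

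In KO tissue *Id3* was lowest relative to WT, *Id1* and *Id2* were lower by less, and *Id4* was at the WT level. *Id3* (ENSMUSG00000007872.4) had 20.3, 17.3, 25.4 and 23.7 CPM in WT replicates 1 to 4 and 10.1, 9.72, 11.6 and 11.8 in KO replicates 1 to 4. All KO values lay below the lowest WT value, and the KO mice lay close to one another. Mean CPM was 21.7 ± 3.6 in WT and 10.8 ± 1.08 in KO (SD, n = 4 each), so KO held 49.9% of the WT level. The log2 fold change of *Id3* was -1.0 ± 0.13 (SE), and 73 of the 17669 genes had a lower one.

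*Id1* (ENSMUSG00000042745.10) had 8.02, 6.30, 10.6 and 7.30 CPM in WT replicates 1 to 4 and 5.37, 6.40, 5.62 and 5.83 in KO replicates 1 to 4. The groups overlapped by a single pair, since KO replicate 2 lay just above WT replicate 2. Mean CPM was 8.06 ± 1.84 in WT and 5.81 ± 0.438 in KO (SD, n = 4 each), and the log2 fold change from WT to KO was -0.47 ± 0.16 (SE). WT replicate 3 was the highest *Id1* value, and without it the log2 fold change was -0.31.

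*Id2* (ENSMUSG00000020644.10) had 57.9, 101, 59.8 and 50.3 CPM in WT replicates 1 to 4 and 44.1, 31.5, 72.6 and 33.5 in KO replicates 1 to 4. The groups overlapped because KO replicate 3 lay above 3 of the 4 WT mice. WT replicate 2 and KO replicate 3, both male, stood above the other mice of their genotype. Mean CPM was 67.3 ± 23.0 in WT and 45.4 ± 19.0 in KO (SD, n = 4 each), and the log2 fold change from WT to KO was -0.57 ± 0.31 (SE). Leaving out WT replicate 2 gave *Id2* a log2 fold change of -0.30, and leaving out KO replicate 3 gave -0.89.

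*Id4* (ENSMUSG00000021379.3) had 336, 147, 344 and 280 CPM in WT replicates 1 to 4 and 344, 230, 253 and 321 in KO replicates 1 to 4. The groups overlapped over most of their range, and WT replicate 2 was lowest of all. Mean CPM was 277 ± 90.8 in WT and 287 ± 54.1 in KO (SD, n = 4 each), and the log2 fold change from WT to KO was 0.05 ± 0.26 (SE). Leaving out that mouse gave *Id4* a log2 fold change of -0.16.

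**Figure D1:**
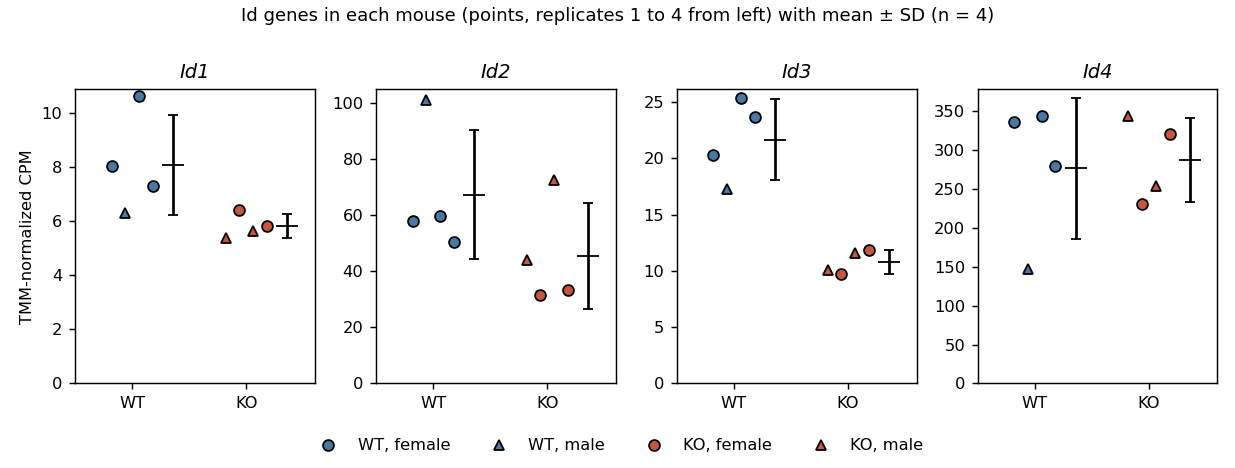
TMM-normalized CPM (y axis, from 0) of each *Id* gene in the 4 WT and the 4 KO mice, with circles for female and triangles for male mice and a bar with the mean ± SD to the right of each group. The KO mice lie below all WT mice for *Id3*, between 9.72 and 11.8 CPM against 17.3 to 25.4, and the groups overlap for *Id1*, *Id2* and *Id4*.

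Of the 4 genes, 3 had a log2 fold change of -0.4 or lower, as had 3.85% of all genes tested, and 1, *Id3*, had groups that did not overlap with KO lower, as had 0.877% of all genes tested. With the quasi-likelihood test of edgeR at an adjusted p under 0.1, 0 of the 4 passed (a gene that passes is called), against 0.00566% of all genes tested. The genes were chosen knowing this contrast, and nothing is read from these counts. In DESeq2, an alternative, *Id3* was called (0.0619% of the 19387 genes with an adjusted p), and in DESeq2 with sex as a covariate *Id3* and *Id2* were called (1.13% of the 17764 genes with an adjusted p). In edgeR *Id3* was called when WT replicate 2 was left out (0.0168% of 17872 genes). In bulk tissue, fewer cells that express a gene and less RNA per cell cannot be told apart.

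The mice were not balanced for sex, and sex was not used to choose the genes, so it was tested. *Id2* was lower in the 5 female mice, at 46.6 ± 13.4 CPM (SD, n = 5), than in the 3 male mice, at 72.6 ± 28.5 (SD, n = 3). The log2 difference of *Id2* between females and males was -0.85 ± 0.15 (SE; adjusted p = 0.0422 from edgeR, with genotype as a covariate), and 3.72% of all genes tested were called in this comparison. *Id1*, *Id3* and *Id4* did not pass, with log2 differences of 0.28, 0.17 and 0.37 and adjusted p between 0.429 and 0.598 (edgeR). The female and male ranges of *Id2* overlapped, from 31.5 to 59.8 CPM in females and from 44.1 to 101 in males. The *Id2* difference no longer passed without WT replicate 2 (log2 difference -0.83, adjusted p = 0.496, edgeR) or without KO replicate 3 (-0.67, adjusted p = 0.130, edgeR).

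Sex went together with markers of cortical excitatory neurons in these dissections. The summed CPM of 9 such markers lay between 491 and 1852 in males and between 62.4 and 368 in females, 0 of the 9 were higher in females, and 7 were called between the sexes. With the cortical marker score (the mean log2 CPM of those markers) as a further covariate, the log2 difference of *Id2* between the sexes was -0.55 (adjusted p = 0.913, edgeR). Sex and cortical marker content cannot be told apart with these mice.

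The genotype difference of *Id2* was larger once sex was in the fit, and those of *Id1* and *Id3* were slightly smaller. With sex as a covariate the log2 fold changes of *Id1*, *Id2*, *Id3* and *Id4* were -0.39, -0.79, -0.95 and 0.20. In the females alone, 3 WT against 2 KO, they were -0.50, -0.78, -1.09 and -0.21. In the males, 1 WT mouse against 2 KO mice, the log2 ratios of the mean CPM were -0.20, -0.79, -0.67 and 1.02. *Id1*, *Id2* and *Id3* were thus lower in KO in either sex, and *Id4* was lower in KO females and higher in KO males. The interaction of sex and genotype passed for none of the 4 genes (adjusted p from 0.621 for *Id4* to 0.998 for *Id2*, edgeR), with 1 WT male behind it. Other fits moved *Id4* across 0 and left the other 3 genes below 0.

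**Figure D2:**
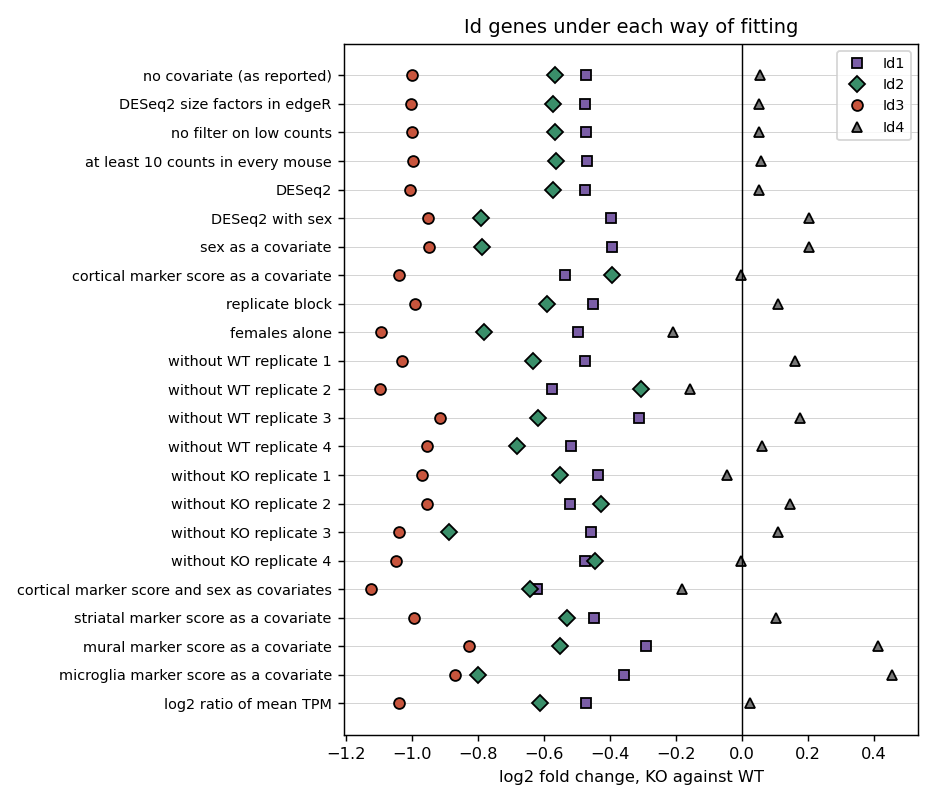
Log2 fold change, KO against WT (x axis), of the 4 *Id* genes (symbols) under each way of fitting (rows), from the fit without covariates at the top to the ratio of mean TPM at the bottom. *Id1*, *Id2* and *Id3* lie left of 0 in every row, *Id3* between -1.13 and -0.83, and *Id4* lies on either side of 0.

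Levels of different genes were compared per length, as TPM summed over the transcripts of a gene. TPM divides the reads by transcript length and is relative to the total of the library. Over the 8 mice *Id4* had 101 ± 20.2 TPM, *Id2* 75.7 ± 36, *Id3* 21.8 ± 8.75 and *Id1* 14.0 ± 2.85 (SD, n = 8). *Id4* and *Id2* did not differ beyond their spread: *Id4* was higher in 6 of 8 mice, and *Id2* was higher in WT replicate 2 and KO replicate 3. *Id2* was above *Id3* in 8 of 8 mice, without overlap of the ranges. *Id3* was above *Id1* in 7 of 8 mice, with overlapping ranges, and in KO replicate 2 their levels were 12.8 and 13.0 TPM.

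The family as a whole summed to 237 ± 12.2 TPM in WT and 188 ± 31.8 in KO (SD, n = 4 each). By mouse the sums were 234, 251, 222 and 240 TPM in WT replicates 1 to 4 and 181, 150, 227 and 192 in KO replicates 1 to 4. KO replicate 3 was the only KO mouse that reached the WT range, which began at 222 TPM. *Id3* made up 12.4% ± 2.06 of the family's TPM in WT and 7.65% ± 0.989 in KO (SD, n = 4 each), without overlap of the groups. The shares of the other 3 genes overlapped between the groups. *Id4* made up 42.5% ± 12.4 in WT and 54.9% ± 8.91 in KO (SD, n = 4 each), with the lowest WT value, 24.1%, in WT replicate 2 and a WT mean of 48.6% without that mouse. *Id2* made up 38.2% ± 14.4 and 31.1% ± 9.52 (SD, n = 4 each), and its WT mean was 31% without WT replicate 2. *Id1* made up 6.92% ± 1.05 and 6.42% ± 1.57 (SD, n = 4 each). These shares contain the contrast known when the genes were chosen, and they are given without a test.

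**Figure D3:**
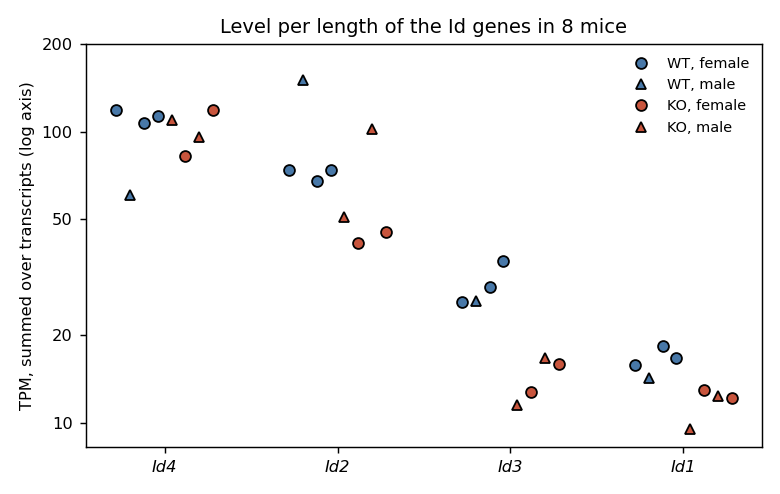
TPM summed over transcripts (y axis, log scale) of the 4 *Id* genes, ordered by their mean, in 8 mice (WT blue and to the left, KO red and to the right, circles female, triangles male). *Id4* and *Id2* overlap near 100 TPM, and *Id2* lies above *Id3* in every mouse. In KO the ranges of *Id3* and *Id1* overlap, with means of 14.3 and 11.7 TPM.

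Nearly all RNA of each gene came from 1 transcript. *Id4* is quantified as the single transcript *Id4*-201, and *Id1*-202 reached at most 0.182 TPM. *Id2*-201 made up 98.9% ± 0.625 of *Id2* TPM in WT and 99.2% ± 0.121 in KO (SD, n = 4 each). This share did not differ beyond the spread of the mice (exact permutation test, 2-sided, p = 0.4, adjusted p = 0.457 over 2 genes). *Id3*-201 made up 97.4% ± 1.6 of *Id3* TPM in WT and 98.7% ± 1.97 in KO (exact permutation test, 2-sided, p = 0.457, adjusted p = 0.457, SD, n = 4 each). The smallest p that 4 mice against 4 allow is 0.0286. So the lower *Id3* was a lower *Id3*-201, the protein-coding transcript, with 25.9, 25.3, 28.1 and 34.7 TPM in WT replicates 1 to 4 and 11.6, 12.7, 16.0 and 15.9 in KO replicates 1 to 4. *Id3*-203, a transcript with a retained intron, stayed below 1 TPM, at 0.523 ± 0.332 in WT and 0.213 ± 0.332 in KO (SD, n = 4 each). *Id3*-202 had 0 to 1 estimated counts in each WT mouse and 0 in each KO mouse, too few to compare.

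Correlations among the 4 genes across the 8 mice contain the genotype difference known when the genes were chosen, so the pooled values are given without a p, and the test was made on values centred on the mean of each genotype, with an adjusted p under 0.05 as the threshold. Pooled, *Id1* and *Id3* had the highest correlation (Pearson's r = 0.83, Spearman's rho = 0.74). Centred, their r was 0.60 (exact permutation p = 0.243, adjusted p = 0.378 over 6 pairs). Without the 2 mice farthest in *Id1* (WT replicates 1 and 3) the pooled r was 0.77.

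None of the 6 centred pairs passed. The pooled r of *Id3* and *Id4* was 0.086 (rho = 0.24), and centred it was 0.66 (exact permutation p = 0.139, adjusted p = 0.378). That of *Id1* and *Id4* was 0.28 (rho = 0.071), and centred 0.58 (exact permutation p = 0.351, adjusted p = 0.421). So *Id1*, *Id3* and *Id4* had positive centred values with one another. *Id2* had negative centred values with the other 3 genes. The pooled r of *Id2* and *Id3* was 0.46 (rho = 0.48), and centred -0.28 (exact permutation p = 0.509, adjusted p = 0.509). That of *Id1* and *Id2* was 0.16 (rho = 0.12), and centred -0.46 (exact permutation p = 0.252, adjusted p = 0.378). That of *Id2* and *Id4* was -0.51 (rho = -0.21), and centred -0.53 (exact permutation p = 0.165, adjusted p = 0.378), and the pooled value was 0.18 without WT replicate 2, where *Id2* was highest and *Id4* lowest. With the 2 mice farthest in the first gene of the pair left out, the pooled r was 0.33 for *Id2* and *Id3*, -0.43 for *Id2* and *Id4*, 0.020 for *Id1* and *Id2*, -0.32 for *Id1* and *Id4* and -0.21 for *Id3* and *Id4*.

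Each gene was also set beside 11 marker lists of cell types, 44 relations in all, and no test of these relations was planned. *Id4* followed the markers of striatal medium spiny neurons, with r = 0.98 (exact permutation p = 9.92e-05, adjusted p = 0.00437 over 44 relations) and rho = 0.93 (exact permutation p = 0.00223, adjusted p = 0.0982). Only the pooled r passed at an adjusted p under 0.05. Centred on the genotype r was 0.99 (exact permutation p = 0.00174, adjusted p = 0.0764), and without WT replicates 2 and 3, the mice farthest in the score, it was 0.99. The 10 striatal markers summed to 2883 CPM in WT replicate 2, the mouse with the lowest *Id4*, and to between 4487 and 8967 CPM in the other mice. The log2 fold change of all 10 lay below 0 (median -0.09), and 0 were called. The genotype difference of *Id4* with the striatal marker score as a covariate was 0.10 ± 0.07 (SE).

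*Id2* had its highest r with the cortical markers, at 0.85 pooled (rho = 0.76) and 0.88 centred on the genotype (exact permutation p = 0.0174, adjusted p = 0.183), which did not pass over the 44. Without WT replicate 2 and KO replicate 4, the mice farthest in the score, r was 0.61. The summed cortical markers lay between 99.4 and 1852 CPM in WT and between 62.4 and 892 in KO, 8 of 9 were lower in KO, and 0 were called. With the cortical marker score as a covariate the log2 fold change of *Id2* was -0.39, against -0.57 without it, and that of *Id3* was -1.04. *Id2* had negative values of similar size with some other marker lists, among them cell types of the V-SVZ, and these did not pass either. Its centred r was -0.88 with neuroblast markers, -0.80 with markers of astrocytes and neural stem cells and -0.80 with ependymal markers (exact permutation p from 0.0191 to 0.0382, adjusted p = 0.183 for each), and the pooled r were -0.79, -0.73 and -0.69 (rho = -0.76, -0.74 and -0.62). Without the 2 mice farthest in each score the pooled r were -0.42, -0.90 and -0.48. The centred r of *Id2* was -0.70 with oligodendrocyte precursor, -0.55 with microglia, -0.55 with choroid plexus and -0.51 with striatal markers. With endothelial markers it was -0.05, with mural markers 0.09 and with oligodendrocyte markers 0.35, and none of these passed.

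*Id3* and *Id1* were positively related to markers of mural cells, the contractile cells of vessel walls, and of microglia, and none of these relations passed. With the mural markers the pooled r was 0.72 for *Id3* (rho = 0.81) and 0.73 for *Id1* (rho = 0.55), and centred 0.73 and 0.59 (exact permutation p = 0.0694 and 0.240, adjusted p = 0.255 and 0.422). With the microglia markers the pooled r was 0.62 for *Id3* (rho = 0.83) and 0.60 for *Id1* (rho = 0.57), and centred 0.66 and 0.45 (exact permutation p = 0.0920 and 0.363, adjusted p = 0.311 and 0.551). *Id4* had higher r with the microglia markers, at 0.75 pooled (rho = 0.69) and 0.92 centred (exact permutation p = 0.0156, adjusted p = 0.183), which did not pass either. Without the mice farthest in that score the pooled r of *Id4* was 0.87. The largest centred r of *Id3* was with the endothelial markers, at 0.83 (exact permutation p = 0.0365, adjusted p = 0.183), where the pooled r was 0.036 (rho = 0.071). For *Id1* it was with the choroid plexus markers, at 0.86 (exact permutation p = 0.0260, adjusted p = 0.183), where the pooled r was 0.40 (rho = 0.14). Centred values of *Id1* with cortical (-0.72), endothelial (0.71) and striatal markers (0.68) were also larger in size than with mural markers, and none passed. Without the 2 mice farthest in the score the pooled r of *Id3* and *Id1* were 0.38 and 0.46 with the mural markers and 0.35 and 0.58 with the microglia markers, and that of *Id3* was -0.49 with the endothelial markers. All 6 mural markers had a log2 fold change below 0 (median -0.23), and 0 were called. Their sum lay between 179 and 239 CPM in WT and between 150 and 198 in KO, and none was at 0. With the mural marker score in the fit, an alternative chosen after seeing the data, the log2 fold change of *Id3* was -0.83 and that of *Id1* -0.29. Of 8 endothelial markers 6 were higher in KO, with a median of 0.04 and 0 called. Of 6 microglia markers 5 were lower in KO, with a median of -0.17, and with their score as a covariate *Id3* was at -0.87 and *Id1* at -0.36. Mice were too few to give these relations within each sex, with 5 females and 3 males.

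**Figure D4:**
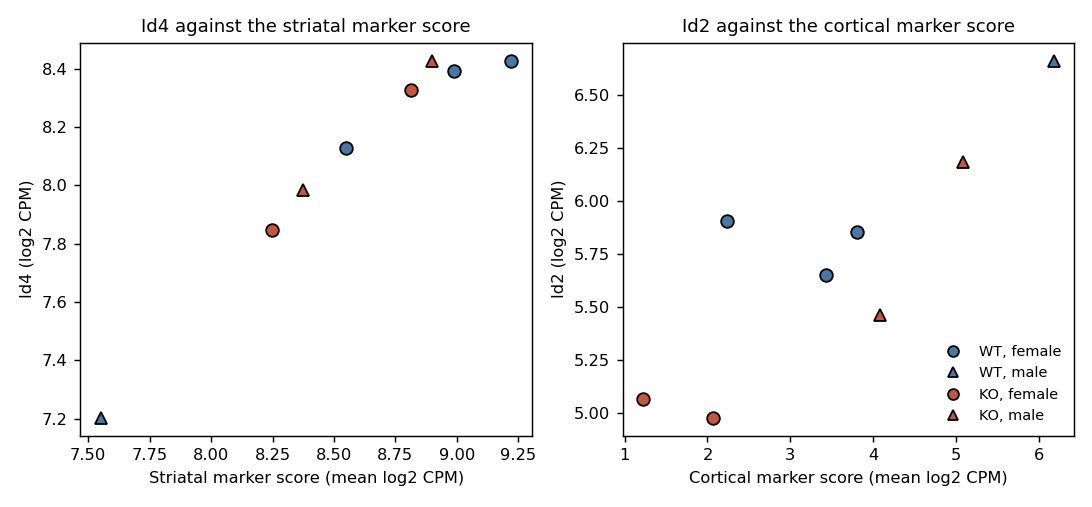
Left, *Id4* (log2 CPM, y axis) against the striatal marker score (mean log2 CPM of 10 markers, x axis), and right, *Id2* against the cortical marker score (9 markers), with WT in blue, KO in red, circles for female and triangles for male mice. *Id4* rises along 1 line for both genotypes (r = 0.98), and the 2 highest *Id2* values belong to the male mice with the 2 highest cortical scores.

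The genes whose log2 CPM across the 8 mice was most like that of a member were named from 14452 genes with a mean of at least 1 CPM. They describe these mice and are given without a test. For *Id3* they were *Mmp28* (r = 0.98), *Plin3* (r = 0.97) and *Tfcp2l1* (r = 0.97). *Mmp28*, a secreted metalloproteinase, had 3.45 ± 0.476 CPM in WT and 2.25 ± 0.264 in KO (SD, n = 4 each). *Plin3*, a lipid droplet coat protein, had 21.4 ± 1.09 and 17.5 ± 0.271 CPM, and *Tfcp2l1*, a transcription factor, 9.17 ± 1.08 and 6.0 ± 0.535 CPM (SD, n = 4 each). All 3 had groups that did not overlap with KO lower, as 0.877% of all genes tested had. They were picked for likeness to *Id3*, whose groups did not overlap, so nothing is read from this.

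For *Id1* the most alike genes were *Ovca2* (r = 0.96), *Sp100* (r = 0.95) and *Cep44* (r = 0.92). For *Id2* they were *Vipr1* (r = 0.98), *Sorbs2* (r = 0.98) and *Mark1* (r = 0.97), and each of these 3 was highest in WT replicate 2, as *Id2* was. For *Id4* they were *Gpr83* (r = 0.99), *Wdr44* (r = 0.99) and *Meis2* (r = 0.99), and each of these 3 was lowest in WT replicate 2. *Meis2*, a homeobox factor of striatal neurons, had 389, 208, 414 and 324 CPM in WT replicates 1 to 4 and 380, 270, 311 and 356 in KO replicates 1 to 4, with WT replicate 2 lowest and KO replicate 2 next, as for *Id4*.

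In edgeR no gene for a protein that Id proteins bind or restrain passed between the genotypes. This test called few genes of any kind, 1 in the fit without covariates and 0 with the mice blocked by replicate number. Leaving out WT replicate 1 or WT replicate 4 also gave 0 called genes. The targeted gene *Lrig1* thus did not pass in the blocked fit or in those fits. So a gene that did not pass is not shown to be unchanged. Over all genes tested the median log2 fold change was -0.00094, and 50.3% lay below 0. In each of the lists that follow 0 genes passed at an adjusted p under 0.1, 0 had an unadjusted p under 0.05, as 1.88% of all genes tested had (edgeR's quasi-likelihood test), and DESeq2 without covariates called 0. DESeq2 with sex as a covariate, chosen for these lists after seeing the data, called 1, *Neurod2*, a bHLH gene that is also a cortical marker, at a log2 fold change of -2.51 (adjusted p = 0.0583, DESeq2), against -0.88 in edgeR without covariates. All 3 E proteins were tested. *Tcf3*, which encodes E12 and E47, had 21.8 ± 3.34 CPM in WT and 21.6 ± 1.03 in KO (SD, n = 4 each), a log2 fold change of -0.01 (adjusted p = 1.0, edgeR). *Tcf12*, which encodes HEB, had 47.3 ± 3.72 and 47.5 ± 1.96 CPM (SD, n = 4 each).

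*Tcf4*, the most abundant E-protein gene here, had 170, 311, 181 and 185 CPM in WT replicates 1 to 4 and 196, 151, 234 and 164 in KO replicates 1 to 4. WT replicate 2 stood far above the rest, and the next highest was KO replicate 3. Its log2 fold change between genotypes was -0.19 ± 0.22 (SE; adjusted p = 1.0, edgeR) and 0.05 without WT replicate 2. Between the sexes *Tcf4* was lower in females by a log2 difference of -0.60 (adjusted p = 0.0375, edgeR), with the cortical markers higher in the same males. *Tcf4* and *Id2* thus had their highest values in the same 2 mice.

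Of 12 tissue-restricted bHLH genes 11 were tested (*Neurog2* was too low), with a median log2 fold change of -0.14 and a range from -1.07 to 1.17. The lowest among those with at least 1 CPM was *Bhlhe22*, a repressor of cortical neurons, with 2.23, 39.1, 2.0 and 6.81 CPM in WT replicates 1 to 4 and 6.84, 3.0, 12.4 and 1.62 in KO replicates 1 to 4. The WT mean of *Bhlhe22* rested on WT replicate 2, and without that mouse the log2 fold change was 0.70. The highest of those with at least 1 CPM was *Lyl1*, a factor of blood and vessel cells, at 0.06. *Neurod1*, *Neurod2*, *Neurod6* and *Bhlhe22* were called between the sexes, together with the cortical list, which shares *Neurod2* and *Neurod6*. Of 6 bHLH genes in the list of Hes and Hey repressors 5 lay below 0 with a median of -0.10, from *Hes5* at -0.24 to *Hes6* at 0.12.

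Other reported partners are the retinoblastoma proteins and the ETS factors of the ELK group. All 6 of these genes lay below 0, where 50.3% of all genes did, with a median of -0.10 and a range from *Rbl1*, which encodes p107, at -0.21 to *Elk4* at -0.01. Of 6 genes that E proteins activate or Id proteins restrain 5 were tested (*Cdkn2a* was too low), with a median of -0.01. *Cdkn1a*, which encodes the cell cycle inhibitor p21, had 15.4 ± 2.87 CPM in WT and 16.9 ± 2.31 in KO (SD, n = 4 each), a log2 fold change of 0.13 (adjusted p = 1.0, edgeR). *Cdkn1c*, which encodes p57, was at -0.10 between genotypes and was lower in females by a log2 difference of -0.55 (adjusted p = 0.0575, edgeR).

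Upstream of the *Id* genes stand the BMP ligands, their receptors and the SMADs. All 16 genes of this list were tested, and 1, *Smad5*, was called between the sexes, as were 3.72% of all genes tested. Between the genotypes 11 lay below 0, and the median log2 fold change was -0.11. The lowest was *Acvrl1*, which encodes the endothelial receptor ALK1, with 10.8, 9.02, 24.3 and 18.6 CPM in WT replicates 1 to 4 and 9.999, 13.9, 9.47 and 10.4 in KO replicates 1 to 4. WT replicates 3 and 4 were above all other mice, and the log2 fold change was -0.52 ± 0.30 (SE; adjusted p = 1.0, edgeR). Without WT replicate 3, also the mouse with the highest *Id1* and *Id3*, it was -0.22. The highest was *Acvr2a*, a type II receptor, at 40.2 ± 5.59 CPM in WT and 49.0 ± 6.69 in KO (SD, n = 4 each), a log2 fold change of 0.28.

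Other direct targets of BMP signalling were examined beside the *Id* genes. Of 5 genes 4 lay below 0, where 50.3% of all genes tested did, with a median of -0.13. All 5 had overlapping groups. Only 0.877% of all genes tested had groups that did not overlap with KO lower, so nothing is read from this count. *Smad6* and *Smad7*, which encode the inhibitory SMADs, had log2 fold changes of -0.29 and -0.13, and *Smad9*, a receptor-regulated SMAD, -0.07. *Smad6* had 1.27 ± 0.406 CPM in WT and 1.04 ± 0.259 in KO (SD, n = 4 each). *Bambi*, a decoy receptor, was at 0.14. *Atoh8*, itself a bHLH factor, had 0.971 ± 0.312 CPM in WT and 0.654 ± 0.181 in KO (SD, n = 4 each), a log2 fold change of -0.57 ± 0.30 (SE; adjusted p = 1.0, edgeR).

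**Figure D5:**
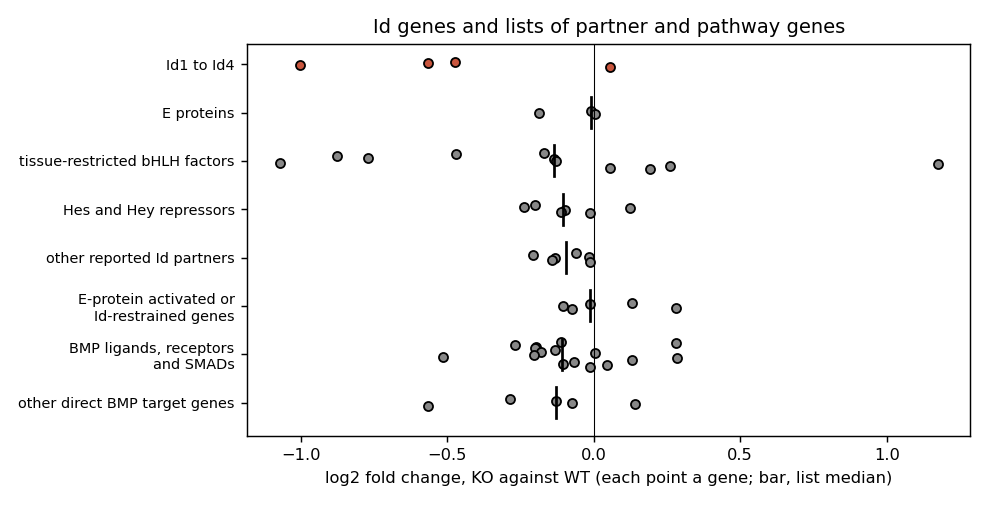
Log2 fold change, KO against WT (x axis), of the 4 *Id* genes (red) and of each tested gene in 7 lists of partner and pathway genes (grey, with a bar at the list median). *Id3* lies at -1.0, the list medians lie between -0.14 and -0.01, and the widest list is that of the bHLH genes.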

How the data were processed

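PolyA-selected libraries from 1 hemisphere per mouse were sequenced, and the authors ran bcl2fastq 2.20 and Salmon against Gencode M29. The deposited gene table holds estimated counts that are not normalized. The deposited transcript files, 1 per mouse, hold Salmon's estimated counts and its TPM. How transcripts were summed to genes is not given in the sources used here, but for the *Id* genes the transcript sums equalled the gene counts.

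Estimated counts were rounded and tested with edgeR 4.0.16 in R 4.3.3 (TMM, filterByExpr, quasi-likelihood test, no covariates, Benjamini-Hochberg over 17669 genes, called at an adjusted p under 0.1, the threshold of the study). CPM are TMM-normalized, log2 CPM have a prior count of 2, and a standard error is the log2 fold change over the square root of F. Sex was tested in a fit with genotype. Correlations used exact permutation of the mice, pooled and, within genotype, on centred values. For pairs of *Id* genes the pooled test was planned, with centred values beside it. The relations with marker lists were not a planned test. After the values were seen, the pooled p was kept in the text for *Id4* and the striatal markers, the only marker relation that passed. Centred p were given for the other relations, because pooled values of *Id1*, *Id2* and *Id3* contain the genotype difference known when they were chosen. The coding sequences were aligned with mafft 7.526. The fits were tested on simulated data. The *Id* genes, the lists of genes and the markers were chosen with earlier results of these data known. Named beside the *Id* genes were *Lrig1*, the E proteins, the direct BMP targets, the lowest and highest gene with at least 1 CPM of every other list, and the 3 genes most like each *Id* gene. *Neurod1*, *Neurod2*, *Neurod6*, *Neurog2* and *Smad5* were named after their values were seen. Gene names covered 94.8% of the identifiers. Alternatives were DESeq2 1.42.0 with and without sex, its size factors in edgeR, other filters, covariates, a replicate block, females alone and each mouse left out.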

Additional observations from a re-analysis of the deposited data

Results flagged for a closer look

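A mouse far from the other 3 of its group was looked for in 56 groups of 4 values, and 5 (8.93%) were flagged by Dixon's test, where chance flags about 1 in 20. *Id2* reached 150 TPM in WT replicate 2, with the next WT mouse at 74.1 TPM. *Id2* reached 102 TPM in KO replicate 3, with the next KO mouse at 50.9 TPM. In CPM neither *Id2* group was flagged. The *Id* genes were searched in both units, so the groups are not independent of one another. *Tcf4* reached 311 CPM in WT replicate 2, with the next WT mouse at 185 CPM. *Bhlhe22* reached 39.1 CPM in the same mouse, with the next at 6.81 CPM. The cortical markers summed to 1852 CPM in WT replicate 2 and to 892 CPM in KO replicate 3, the 2 highest sums, and their part in these 4 values was not tested. The share of *Id3* TPM in *Id3*-201 was 95.8% in KO replicate 3, with the next KO mouse at 99.4%.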

How the results depend on the processing

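Group size limits the comparison: 4 mice against 4, 1 of them a WT male, and 1 dissection in which cortical markers were highest and striatal markers lowest (WT replicate 2). The log2 fold changes of *Id1*, *Id2* and *Id3* stayed below 0 in every alternative run, from -0.62 to -0.29 for *Id1*, from -0.89 to -0.30 for *Id2* and from -1.13 to -0.83 for *Id3*. That of *Id4* ranged from -0.21 to 0.46. Whether the mouse numbers pair the mice is not given in the sources used here. The 4 same-numbered pairs deviated from their genotype means with r between -0.22 and 0.27, which cannot show whether the mice were paired. With the replicate block the log2 fold changes were -0.45, -0.59, -0.99 and 0.11 for *Id1* to *Id4*.

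At an adjusted p under 0.1, 1 gene was called in the fit without covariates, 2 without a filter on low counts, 0 with at least 10 counts in every mouse, 2 with sex as a covariate, 2 with the cortical marker score, 0 with the replicate block, 12 in DESeq2 and 201 in DESeq2 with sex, and 0 to 3 with 1 mouse left out. Of the 4 *Id* genes 0 were called in edgeR, 1 in DESeq2, 2 in DESeq2 with sex and 0 to 1 (*Id3*, without WT replicate 2) with 1 mouse left out. Of the partner and pathway genes DESeq2 with sex, chosen after seeing the data, called 1, *Neurod2*. With the cortical marker score, also chosen after seeing the data, the sex differences were -0.19 for *Id1*, -0.55 for *Id2*, -0.18 for *Id3* and -0.34 for *Id4*. With 1 mouse left out the sex difference of *Id2* ranged from -1.0 to -0.67 and that of *Id4* from -0.10 to 0.64.

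At an adjusted p under 0.05, 1 of the 6 pooled correlations among *Id* genes passed, *Id1* with *Id3*, which contains the known genotype difference, and 0 passed when centred on the genotype or without the 2 farthest mice, and 0 to 1 with 1 mouse left out (0 without WT replicate 2, WT replicate 3, KO replicate 1, KO replicate 3 or KO replicate 4). Centred, the r of *Id1* and *Id2* was -0.46 and of *Id2* and *Id3* -0.28. Without the 2 farthest mice the r of *Id1* and *Id4* was -0.32 and of *Id3* and *Id4* -0.21. With 1 mouse left out the r of *Id2* and *Id4* ranged from -0.78 to 0.18 and of *Id3* and *Id4* from -0.11 to 0.39.

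*Bhlhe22*, at -1.07 in the fit without covariates, was at 0.15 with the cortical marker score and at 0.70 without WT replicate 2. Other genes that changed sign were nearer 0. With the cortical marker score *Tcf12* was at -0.020, *Cdkn1c* at 0.020 and *Smad9* at 0.0020, and *Tcf3* was at 0.011 with sex and at 0.00062 with the replicate block. With 1 mouse left out the log2 fold change ranged from -0.094 to 0.083 for *Tcf3*, from -0.32 to 0.054 for *Tcf4*, from -0.039 to 0.055 for *Tcf12*, from -1.72 to 0.70 for *Bhlhe22*, from -0.0046 to 0.12 for *Lyl1*, from -0.014 to 0.21 for *Hes6*, from -0.062 to 0.044 for *Elk4*, from -0.23 to 0.045 for *Cdkn1c* and from -0.26 to 0.065 for *Smad9*. The causes were not tested.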
